A study of Mus musculus with 9 samples.

Results

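The p53 pathway was read here through open chromatin at 10 of its genes in alphaTC1, a murine pancreatic alpha cell line, after knockdown of Smndc1 or Atrx. The genes are Trp53 itself, which encodes p53, and 9 genes of its arrest and repair branch: Cdkn1a, Mdm2, Gadd45a, Xpc, Ccng1, Trp53inp1, Sesn1, Sesn2 and Zmat3. Each gene was described by the consensus regions of the ATAC-seq data that overlap its bounds on mm10 or the 10 kb on either side. This gave 48 regions of 80827 in all, between 3 and 7 per gene, and none belonged to 2 of the 10 genes. All 48 passed the filter on low counts. ATAC-seq cuts accessible DNA with a transposase, and the count of a region measures how open it was.

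Cells carried an shRNA against Smndc1, an shRNA against Atrx, or an empty vector, and were collected on day 5 of transduction, with 3 libraries in each of the 3 groups. Smndc1 encodes a splicing factor and Atrx a chromatin remodeler, and the title of the study names chromatin remodeling and splicing in the control of pancreatic hormones as its subject. The labels call the libraries individual biological replicates but do not say whether these were separate transductions, and each target is given as 1 shRNA. All groups share the parent line, which came from a pancreatic tumour of mice with a T antigen transgene. T antigen binds and inhibits p53, and neither p53 activity nor the RNA of the shRNA targets was measured in these data, so the knockdown was not checked here.

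Cells hold p53 low through Mdm2, a ubiquitin ligase that marks p53 for destruction. After DNA damage or other stress p53 escapes Mdm2 and binds DNA as a tetramer, at sites built from a pair of half-sites, near genes that halt the cell cycle, repair DNA or kill the cell. Cdkn1a encodes p21, an inhibitor of cyclin-dependent kinases and the main effector of p53 arrest. In mouse Cdkn1a the best-known p53 sites lie upstream of the main start, and in Gadd45a the best-known site lies in an intron.

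The promoter sequences below show where the annotated starts of 3 targets stand relative to the open regions and to p53 motifs. They come from RefSeq on GRCm38.p6, run from 250 bases before to 50 after each start, and are written 5′ to 3′ on the gene's strand. Of the 10 genes, 7 are in this table, with 9 starts. Capitals mark matches to the p53 half-site consensus and to the GC box GGGCGG, searched on both strands (CCGCCC on the other strand). A full p53 site was counted where a pair of half-sites lay 0 to 13 bases apart, so it overlaps its half-sites.
Cdkn1a, upstream start, chr17:29090729-29091028, plus strand: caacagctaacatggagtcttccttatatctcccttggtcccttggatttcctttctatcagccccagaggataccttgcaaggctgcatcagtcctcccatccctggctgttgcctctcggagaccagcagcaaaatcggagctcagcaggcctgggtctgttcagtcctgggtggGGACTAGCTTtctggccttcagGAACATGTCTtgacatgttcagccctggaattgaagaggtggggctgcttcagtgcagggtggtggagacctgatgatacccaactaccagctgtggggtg
Cdkn1a, downstream start, chr17:29093519-29093818, plus strand: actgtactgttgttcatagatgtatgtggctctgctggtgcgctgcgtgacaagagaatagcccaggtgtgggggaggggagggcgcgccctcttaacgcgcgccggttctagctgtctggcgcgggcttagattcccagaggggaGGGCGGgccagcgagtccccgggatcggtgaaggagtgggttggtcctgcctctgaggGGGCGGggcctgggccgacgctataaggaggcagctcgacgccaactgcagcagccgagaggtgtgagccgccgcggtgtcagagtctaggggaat
Mdm2, chr10:117710709-117711008, minus strand: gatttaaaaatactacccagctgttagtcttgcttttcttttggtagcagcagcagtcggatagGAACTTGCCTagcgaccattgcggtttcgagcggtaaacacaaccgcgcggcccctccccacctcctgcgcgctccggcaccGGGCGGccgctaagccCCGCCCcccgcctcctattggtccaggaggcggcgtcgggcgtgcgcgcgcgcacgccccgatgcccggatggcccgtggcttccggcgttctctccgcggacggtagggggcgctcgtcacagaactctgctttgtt
Gadd45a, chr6:67037358-67037657, minus strand: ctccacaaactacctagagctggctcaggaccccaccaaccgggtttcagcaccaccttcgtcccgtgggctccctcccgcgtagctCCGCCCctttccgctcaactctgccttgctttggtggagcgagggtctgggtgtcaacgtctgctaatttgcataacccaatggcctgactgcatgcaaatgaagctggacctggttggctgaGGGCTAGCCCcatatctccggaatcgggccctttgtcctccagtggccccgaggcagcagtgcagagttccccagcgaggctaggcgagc

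The 2 starts of Cdkn1a differ. The upstream promoter holds a full p53 site by the rule above, a pair of exact matches that begins at position -73 from its start. The later match of this pair, GAACATGTCT, is directly followed by tgacatgttc, which departs from the consensus at its first base and was not marked. A p53 site made of these adjoining stretches would begin at the later match and not at -73. The upstream promoter has 2 CpG dinucleotides and 54.7% G+C, and overlaps no consensus region. The downstream promoter lies wholly inside an open region, with 23 CpG, 64.7% G+C, 2 GC boxes and 0 p53 half-sites. The Mdm2 and Gadd45a promoters also lie wholly inside open regions and hold 1 half-site each. Across the 9 member promoters, 6 held a half-site and 1 a full site, and the shares over all 32851 promoters in the table were 8.36% and 0.0731%. GC boxes stood in 6 of 9 promoters, with 35.7% over all promoters. CCAAT stood in 7 of 9 (37.4% over all) and TATAAA in 1 of 9 (13.6% over all). A match is a string of letters and shows no binding, and the start used by alphaTC1 cells was not measured.

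Library totals over the regions were 5.41 to 6.68 M counts with Smndc1 shRNA, 5.29 to 6.84 M with Atrx shRNA and 5.83 to 8.15 M with empty vector. The libraries differed in contrast between strong and weak regions: the strongest 10% of regions held 38.5% to 38.8% of the counts in the 3 libraries numbered 3, and 43.3% to 48.8% in the other 6. Each group has 1 low-contrast library, and it is the lowest of its group at the strongest region of all 10 genes. Levels are therefore given as CPM, the count of a region scaled to library size with TMM factors, and tests are given with TMM factors and also with trended offsets, a loess curve for each library that removes such differences in contrast. A region was called at an adjusted p under 0.05 in edgeR's quasi-likelihood test over 80345 regions, and fold changes are given on the log2 scale, each ± its standard error (SE). The alpha cell label was checked against 8 marker genes. All 8 had at least 1 region, while Ins1, Cd3e, Ptf1a, Krt19 and Hhex had none, Ins2 reached 5.29 CPM and Ptprc 2.87 CPM. Regions of the fibroblast and endothelial markers Col1a1 and Pecam1 reached 60.0 and 44.3 CPM.

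Regions at the starts of the p53 genes had a higher median level than promoter regions as a whole. Per kb of region, the 8 member regions in promoter windows (from 1000 bp before to 500 bp after a start) had a median level of 70.8 CPM per kb. The 11915 promoter-window regions of all genes had a median of 35.4 CPM per kb. The other member regions were weaker, with medians of 15.1 CPM per kb for the 24 in gene bodies and 8.82 CPM per kb for the 16 in flanks. Xpc, Trp53inp1 and Zmat3 have no start in the table used, so their regions at the ends of the gene count as gene body. The strongest region of each gene, taken as the one with the highest mean CPM, was densest at Gadd45a (137 ± 20.6 CPM per kb, mean and SD of all 9 libraries) and least dense at Zmat3 (27.6 ± 6.22 CPM per kb). Between them came Cdkn1a (101 ± 20.3), Sesn1 (89.8 ± 23.5), Ccng1 (87.6 ± 14.0), Xpc (72.0 ± 10.7), Trp53inp1 (67.5 ± 11.3), Sesn2 (49.6 ± 9.01), Mdm2 (44.4 ± 12.8) and Trp53 (42.6 ± 7.36), all in CPM per kb. Between neighbours in this order the intervals of mean ± SD overlap, except for Trp53 above Zmat3.

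**Figure D1:**
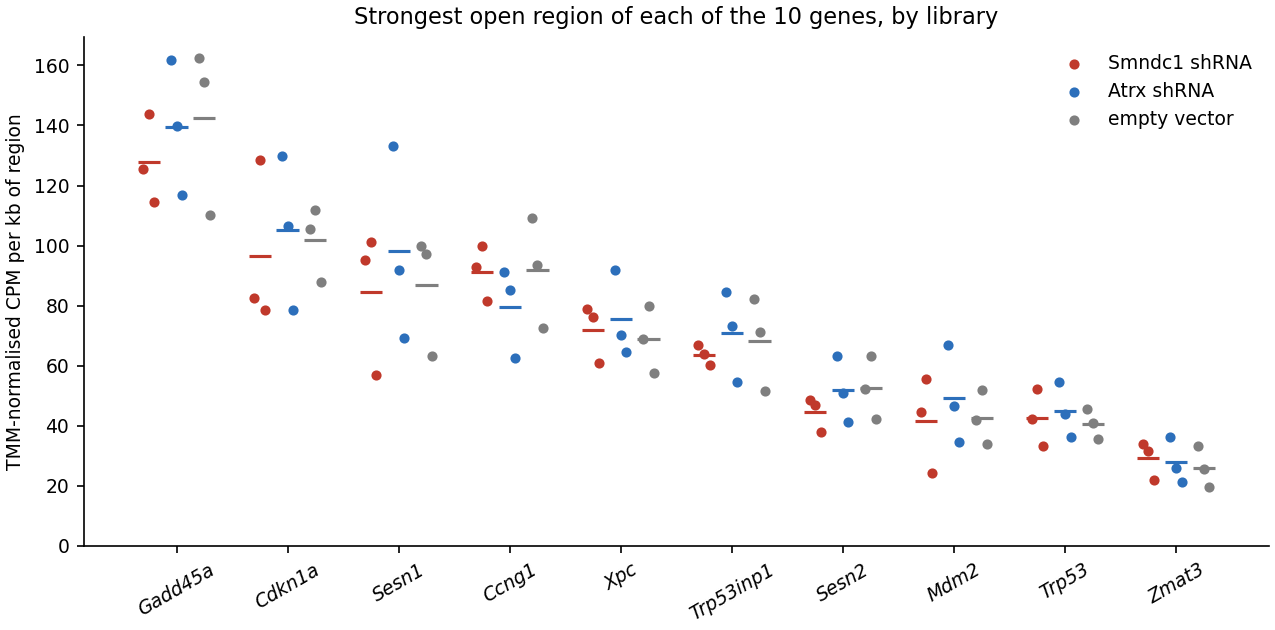
The strongest open region of each of the 10 genes, in TMM-normalised CPM per kb of region, with 1 point per library and a line at each group mean (n = 3 libraries per group). Within every gene the 3 groups overlap, and the genes run from Gadd45a at 137 CPM per kb to Zmat3 at 27.6 CPM per kb over all libraries.

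With Smndc1 shRNA and trended offsets, 3 of the 48 regions changed against empty vector: a region inside Cdkn1a and a region inside Gadd45a became more open, and a region at the lower-coordinate end of Xpc became less open. With Atrx shRNA the same Cdkn1a region became more open and no other member was called. None of the strongest regions was called. Between Smndc1 shRNA and Atrx shRNA 0 of 48 were called. With TMM factors no member was called in any of the 3 comparisons. The Cdkn1a and Gadd45a calls were thus made only with trended offsets among these fits. The Xpc region had an adjusted p of 0.0693 with TMM factors and passed in 3 of 9 such fits with 1 library left out. It passed narrowly with the 6 libraries of the comparison alone (adjusted p = 0.0478) and with a mean count of at least 50 (adjusted p = 0.0355). Leaving out replicate 3 of every group, an alternative chosen after seeing the data, gave a log2 fold change of -1.18 (adjusted p = 0.000471). ATAC-seq counts of a culture do not tell a region that opened in more of the cells from one that opened further in each.

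The members' counts are read here against the share of all regions called. With trended offsets and Smndc1 shRNA, 2 members were higher and 1 lower, and over all regions 0.416% were called higher and 0.717% lower. With Atrx shRNA 1 member was higher and 0 lower, and over all regions 0.195% and 0.0734% were. For Smndc1 shRNA against Atrx shRNA 0 members were called and 0.592% of all regions were. With TMM factors the shares of all regions called were 0.156%, 0.0% and 0.0759% in the same comparisons. The 1 or 2 members called with trended offsets are a larger share of 48 than these, but rest on as few regions. The members were chosen with earlier results of these data known. The called regions also stand at percentiles 81.7 to 95 of all regions by mean CPM, so all regions are not a like background. No excess of calls is read from these shares. The members with an unadjusted p under 0.05 in the TMM fit numbered 3, 3 and 0, that is 6.25%, 6.25% and 0.0% of 48, and over all regions these shares were 8.09%, 5.75% and 5.4%. With trended offsets they numbered 6, 5 and 2, or 12.5%, 10.4% and 4.17%, and over all regions 12.5%, 9.58% and 9.3%. DESeq2 and limma voom called 0 members too.

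The upstream gene of the pathway, Trp53, had its strongest region at its start. The region also overlaps the bounds of Wrap53, so it cannot be given to Trp53 alone. It stood at 74.3, 92.2 and 58.5 CPM with Smndc1 shRNA, 96.5, 77.3 and 63.8 with Atrx shRNA and 80.3, 72.1 and 62.6 with empty vector. The groups overlapped, with log2 fold changes of 0.06 ± 0.26 for Smndc1 shRNA and 0.14 ± 0.26 for Atrx shRNA in the TMM fit. Its 2 body regions were not called either.

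Among the regulators of p53, Mdm2 had 50.4, 62.9 and 27.4 CPM at its start with Smndc1 shRNA, 75.7, 52.5 and 39.2 with Atrx shRNA and 47.5, 58.7 and 38.4 with empty vector. Replicate 3 is the lowest of each group there, and the groups overlapped. Ccng1, which encodes cyclin G1, a partner of the phosphatase that acts on Mdm2, had 58.7, 63.1 and 51.4 CPM with Smndc1 shRNA, 57.7, 53.8 and 39.5 with Atrx shRNA and 68.9, 59.1 and 45.9 with empty vector. Trp53inp1, whose product promotes the stress response of p53, had 45.3, 43.1 and 40.6 CPM with Smndc1 shRNA, 57.0, 49.4 and 36.9 with Atrx shRNA and 55.5, 48.1 and 34.8 with empty vector. Neither gene's groups were apart at its strongest region. A weak Ccng1 flank region at chr11:40740063-40740563, chosen after its values were seen, had 5.29, 4.92 and 3.21 CPM with Smndc1 shRNA and 2.66, 1.94 and 1.41 CPM with empty vector, groups that do not overlap, but it was not called (log2 fold change 1.15 ± 0.51, adjusted p = 0.524 with TMM factors and 0.352 with trended offsets).

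Cdkn1a had 3 strong regions in a row, at its downstream start and inside the gene, and the middle one alone was called. The middle one, chr17:29094652-29095198, has its centre 1156 bp downstream of that start. It stood at 49.6, 68.7 and 40.4 CPM with Smndc1 shRNA, 70.7, 54.2 and 41.8 with Atrx shRNA and 38.2, 43.7 and 28.9 with empty vector. On this scale the groups overlap, through replicate 3 of each shRNA. On levels corrected by the trended offsets each shRNA group lies wholly above empty vector, while the shRNA groups overlap each other. These levels were 50.3, 58.8 and 49.3 with Smndc1 shRNA, 58.0, 52.7 and 51.0 with Atrx shRNA and 34.2, 39.0 and 35.1 with empty vector. The log2 fold change with trended offsets was 0.55 ± 0.13 for Smndc1 shRNA (adjusted p = 0.00816) and 0.58 ± 0.13 for Atrx shRNA (adjusted p = 0.0147). With TMM factors the sizes were alike and the errors wider, at 0.51 ± 0.26 (adjusted p = 0.622) and 0.59 ± 0.26 (adjusted p = 0.817). Both comparisons use the same empty vector libraries. Between Smndc1 shRNA and Atrx shRNA the region differed by -0.03 ± 0.13 with trended offsets (adjusted p = 0.970).

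The next Cdkn1a region, chr17:29095291-29095834, is the strongest of the gene and begins just beyond the end of the middle one. It had 44.8, 69.8 and 42.6 CPM with Smndc1 shRNA, 70.7, 58.0 and 42.8 with Atrx shRNA and 57.4, 60.8 and 47.8 with empty vector. Its groups overlapped, and its log2 fold changes with trended offsets were -0.06 ± 0.12 for Smndc1 shRNA and 0.02 ± 0.12 for Atrx shRNA. The start region, chr17:29093495-29094034, had 38.1, 50.01 and 41.6 CPM with Smndc1 shRNA, 54.1, 47.3 and 37.4 with Atrx shRNA and 42.6, 39.5 and 34.4 with empty vector, with log2 fold changes of 0.20 ± 0.14 and 0.25 ± 0.14. Neither was called. Both flank regions upstream stayed between 2.21 and 7.94 CPM in all 9 libraries.

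Gadd45a, whose product links stress to arrest at G2 and to repair, had its strongest region at its start, with 76.5, 87.6 and 69.9 CPM with Smndc1 shRNA, 98.6, 85.3 and 71.3 with Atrx shRNA and 99.1, 94.3 and 67.2 with empty vector. The groups overlapped there. The body region, chr6:67036291-67036842, is centred 841 bp downstream of the start. Both the start and the body region also overlap the bounds of E230016M11Rik, so neither can be given to Gadd45a alone. The body region stood at 39.1, 52.0 and 34.2 CPM with Smndc1 shRNA, 45.0, 34.7 and 24.1 with Atrx shRNA and 32.8, 34.2 and 24.2 with empty vector. With trended offsets it rose with Smndc1 shRNA (0.50 ± 0.14, adjusted p = 0.0459), and the Atrx shRNA value was 0.19 ± 0.15 (adjusted p = 0.717). The difference between the shRNAs was 0.31 ± 0.14 and did not pass (adjusted p = 0.455). With TMM factors the Smndc1 shRNA value was 0.45 ± 0.25 (adjusted p = 0.673).

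Xpc encodes the protein that first recognises damage in global nucleotide excision repair. The region across its lower-coordinate end, chr6:91488767-91489360, had 12.4, 14.1 and 17.4 CPM with Smndc1 shRNA, 21.7, 16.0 and 16.0 with Atrx shRNA and 25.4, 33.7 and 23.4 with empty vector. All libraries of either shRNA lie below all of empty vector, on counts of 83 to 260 per library. The log2 fold change for Smndc1 shRNA was -0.84 ± 0.19 with trended offsets (adjusted p = 0.00544) and -0.92 ± 0.23 with TMM factors (adjusted p = 0.0693). The value for Atrx shRNA was -0.57 ± 0.19 with trended offsets (adjusted p = 0.200), and the shRNAs differed by -0.27 ± 0.20 (adjusted p = 0.738). The strongest Xpc region lies at the other end of the gene and also overlaps the bounds of Lsm3. It had 52.9, 51.2 and 40.8 CPM with Smndc1 shRNA, 61.5, 47.1 and 43.3 with Atrx shRNA and 46.1, 53.5 and 38.6 with empty vector. Those groups overlapped and the region was not called.

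**Figure D2:**
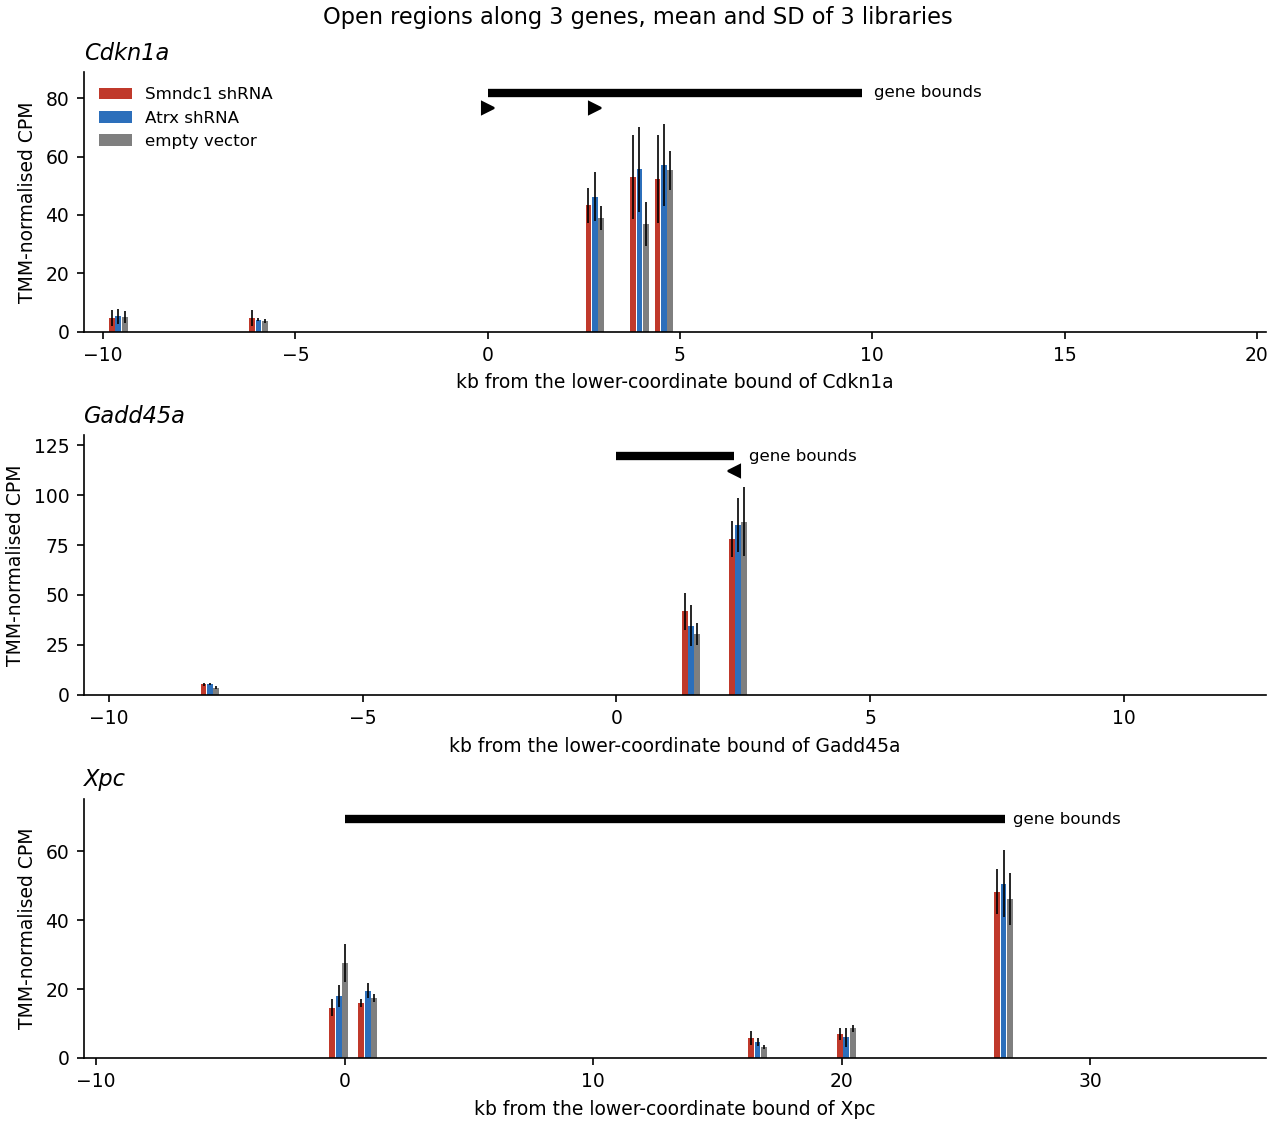
Open regions of Cdkn1a, Gadd45a and Xpc, with the position in kb from the lower-coordinate bound of the gene on the x axis and the mean TMM-normalised CPM with its SD (n = 3 libraries) on the y axis. The 3 bars of a region are set side by side at its centre, black lines give the gene bounds, and arrowheads give annotated starts and their direction (Xpc is not in the start table). At Cdkn1a the middle of the 3 strong regions has 52.9 CPM with Smndc1 shRNA, 55.6 CPM with Atrx shRNA and 36.9 CPM with empty vector, and the SD bars of the 3 groups overlap at each of the 3 regions.

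These calls depended on single libraries. With trended offsets, the Cdkn1a call for Smndc1 shRNA ended without Smndc1 shRNA replicate 2 (0.47, adjusted p = 0.0988) or empty vector replicate 1 (0.51, adjusted p = 0.115), and held in the other 7 of 9 fits. The Cdkn1a call for Atrx shRNA held in 4 of 9 fits, with fold changes of 0.52 to 0.64 and a highest adjusted p of 0.187. It ended without Atrx shRNA replicate 1 or 2, or any 1 of the empty vector libraries. The Gadd45a call held in 2 of 9 fits, without Atrx shRNA replicate 3 or Smndc1 shRNA replicate 3, with fold changes of 0.44 to 0.55 and a highest adjusted p of 0.211. The Xpc call held in 6 of 9 fits and ended without Smndc1 shRNA replicate 1 (-0.72, adjusted p = 0.089), Smndc1 shRNA replicate 2 (-0.74, adjusted p = 0.0578) or empty vector replicate 2 (-0.69, adjusted p = 0.192). In these 9 fits per comparison each of the 4 fold changes kept its sign.

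**Figure D3:**
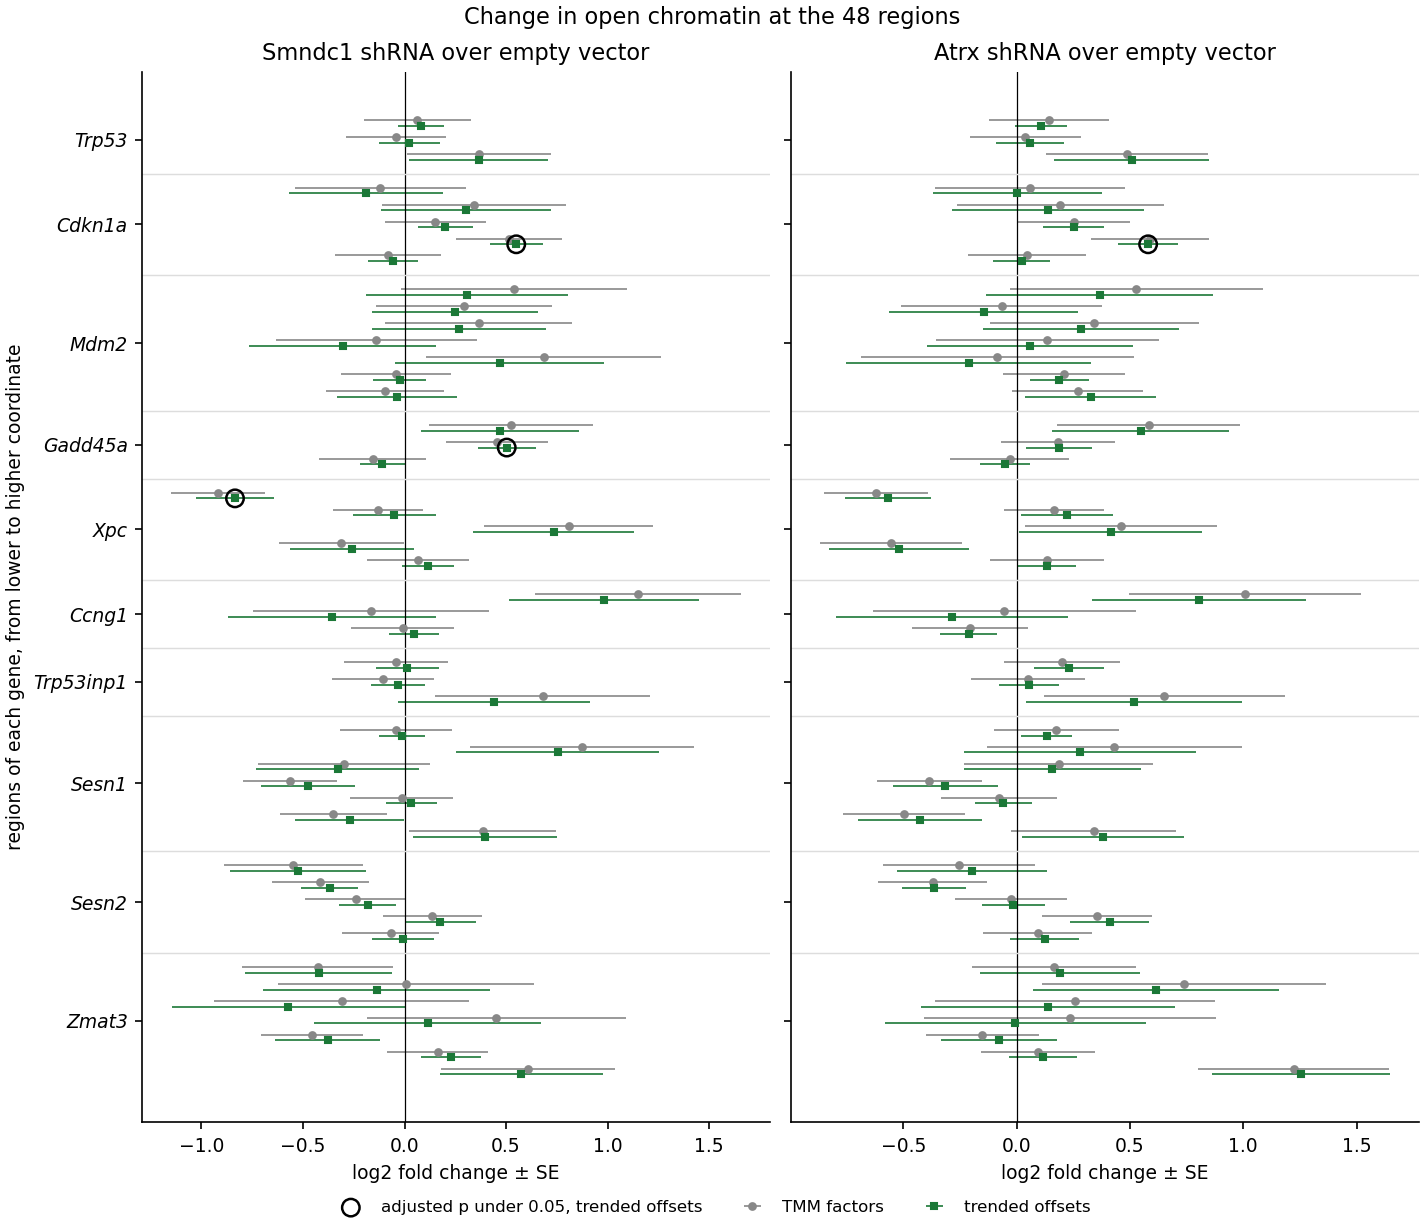
Log2 fold changes with SE at the 48 regions, for Smndc1 shRNA over empty vector (left) and Atrx shRNA over empty vector (right), with TMM factors in grey and trended offsets in green. Circles mark the calls at an adjusted p under 0.05, which occur with trended offsets at Cdkn1a, Gadd45a and Xpc on the left and at Cdkn1a on the right.

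The share of a gene's window counts that falls in 1 region needs no scaling between libraries, although contrast can still move it. The middle Cdkn1a region took 36.0%, 34.5% and 29.6% of the counts in the window of the gene with Smndc1 shRNA, 35.0%, 32.1% and 31.2% with Atrx shRNA and 26.5%, 28.7% and 23.6% with empty vector. The strongest Cdkn1a region took 33.0 ± 1.98% with Smndc1 shRNA and 33.8 ± 1.66% with Atrx shRNA, against 39.6 ± 0.529% with empty vector (SD, n = 3 each). In both regions every shRNA library lies beyond every empty vector library. The start region held 27.8 ± 2.67%, 27.6 ± 0.655% and 27.9 ± 1.80% in the same order, with overlapping groups.

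At Gadd45a the body region took 33.2 ± 2.52% of the window with Smndc1 shRNA, 27.3 ± 3.24% with Atrx shRNA and 25.2 ± 0.721% in empty vector libraries (SD, n = 3 each). Its start region took 62.6 ± 1.68%, 68.3 ± 2.03% and 71.8 ± 1.60% in the same order, lower with Smndc1 shRNA than in any library of the other 2 groups. At Xpc the end region took 16.0 ± 3.15% with Smndc1 shRNA, 18.1 ± 1.85% with Atrx shRNA and 26.6 ± 1.54% in empty vector libraries. In such groups of 3 an exact two-sided permutation test cannot go below p = 0.1. Over the 48 members, shares that did not overlap were higher in 6 and lower in 4 with Smndc1 shRNA, and over 66676 pairs of a region and a coding gene with at least 2 regions these were 6.96% and 6.89%. With Atrx shRNA they were higher in 4 and lower in 7, with 5.84% and 5.78% over all pairs, and for Smndc1 shRNA against Atrx shRNA higher in 2 and lower in 1, with 5.63% and 5.44%. Shares of 1 window are tied to each other, so a higher share of 1 region lowers the rest.

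**Figure D4:**
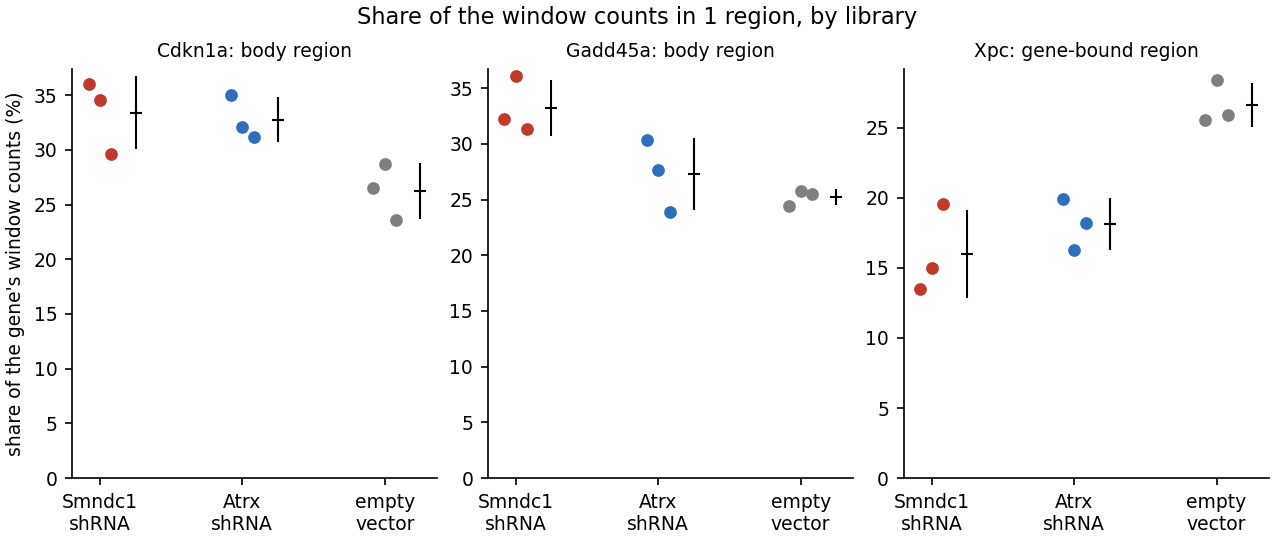
The percentage of a gene's window counts that fell in the region called at Cdkn1a, Gadd45a and Xpc, with 1 point per library and the group mean with SD beside it (n = 3). At Cdkn1a and Xpc both shRNA groups lie apart from empty vector, and at Gadd45a the Smndc1 shRNA libraries lie apart from the other 2 groups.

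The sestrins, which restrain mTORC1 and oxidative damage, had no called region. Sesn1 had 2 open starts. The one that also overlaps the bounds of Cep57l1 had 86.0, 91.4 and 51.4 CPM with Smndc1 shRNA, 120, 83.0 and 62.4 with Atrx shRNA and 90.2, 87.8 and 57.2 with empty vector. The other Sesn1 start had 56.5, 62.9 and 43.3 CPM with Smndc1 shRNA, 50.4, 59.2 and 46.0 with Atrx shRNA and 60.0, 62.6 and 41.4 with empty vector. Both overlapped between groups. Sesn2 had 37.5, 36.3 and 29.3 CPM at its start with Smndc1 shRNA, 48.7, 39.3 and 31.8 with Atrx shRNA and 40.2, 48.9 and 32.5 with empty vector.

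A region across the far end of Sesn2, chr4:132491607-132492821, was picked out after its values were seen. It had 32.9, 35.3 and 32.1 CPM with Smndc1 shRNA, 36.1, 36.4 and 30.8 with Atrx shRNA and 44.7, 44.3 and 44.5 with empty vector. The shRNA libraries all lie below the empty vector ones, but the fold changes with trended offsets, -0.37 ± 0.14 for Smndc1 shRNA (adjusted p = 0.204) and -0.36 ± 0.14 for Atrx shRNA (adjusted p = 0.322), did not pass. On TMM-normalised CPM, 3 members were higher and 4 lower in all Smndc1 shRNA libraries than in all empty vector libraries, and over all regions 5.8% and 6.97% were. For Atrx shRNA 3 were higher and 3 lower, with 4.83% and 5.64% over all regions, and for Smndc1 shRNA against Atrx shRNA 0 and 3, with 5.06% and 5.13%. On levels corrected by the trended offsets the members numbered 3 and 5 with Smndc1 shRNA (7.74% and 8.44% of all regions), 6 and 3 with Atrx shRNA (7.3% and 7.61%) and 2 and 4 between the shRNAs (7.04% and 6.95%).

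Zmat3 encodes a zinc finger protein that binds RNA and is induced by p53. Its strongest region, which also overlaps the bounds of 4930429B21Rik, had 40.4, 37.5 and 26.1 CPM with Smndc1 shRNA, 43.2, 30.9 and 25.1 with Atrx shRNA and 39.3, 30.3 and 23.1 with empty vector. A weak flank region, chr3:32371298-32372225, had 7.23, 9.35 and 4.21 CPM with Atrx shRNA and 2.51, 1.43 and 5.00 CPM with empty vector. The groups overlap there through replicate 3 of each, and the log2 fold change was 1.22 ± 0.42 with TMM factors (adjusted p = 0.656). This region, also chosen after its values were seen, was called without replicate 3 of every group, at 2.08 ± 0.47 (adjusted p = 0.0213).

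Summed over its window, no gene was called: 0 of 10 in each comparison with either scaling, where 31739 genes were tested and neighbouring genes can share regions. Of all genes 0.0%, 0.0% and 0.0% were called with TMM factors for Smndc1 shRNA over empty vector, Atrx shRNA over empty vector and Smndc1 shRNA over Atrx shRNA, and 0.0063%, 0.0% and 0.0126% with trended offsets. With trended offsets the smallest adjusted p of the 10 sums with Smndc1 shRNA was at Sesn2 (-0.19 ± 0.08, adjusted p = 0.439). With Atrx shRNA it was at Cdkn1a (0.23 ± 0.09, adjusted p = 0.434). The Cdkn1a summed level was 138, 199 and 137 CPM with Smndc1 shRNA, 202, 169 and 134 with Atrx shRNA and 144, 152 and 123 with empty vector. Its log2 fold change for Atrx shRNA with TMM factors was 0.28 ± 0.12 (adjusted p = 0.843). The sum of Sesn2 was 126 ± 17.5 CPM with Smndc1 shRNA, 140.5 ± 18.2 with Atrx shRNA and 144 ± 14.0 in empty vector libraries (SD, n = 3 each). Trp53 summed to 112 ± 19.1 CPM with Smndc1 shRNA, 119 ± 24.0 with Atrx shRNA and 108 ± 14.6 in empty vector libraries. Mdm2 summed to 73.4 ± 17.7 CPM with Smndc1 shRNA, 82.3 ± 18.5 with Atrx shRNA and 71.1 ± 10.2 in empty vector libraries. These 3 sums overlapped between all groups. Gadd45a summed to 125 ± 17.8 CPM with Smndc1 shRNA, 125 ± 23.6 with Atrx shRNA and 121 ± 22.5 in empty vector libraries. Xpc summed to 91.6 ± 2.47 CPM with Smndc1 shRNA, 98.6 ± 10.2 with Atrx shRNA and 103 ± 14.5 in empty vector libraries. Ccng1 summed to 64.8 ± 6.16 CPM with Smndc1 shRNA, 57.3 ± 6.94 with Atrx shRNA and 63.0 ± 11.3 in empty vector libraries. The Xpc sum spread least among the Smndc1 shRNA libraries. Trp53inp1 summed to 75.0 ± 8.88 CPM with Smndc1 shRNA, 85.0 ± 19.0 with Atrx shRNA and 77.6 ± 18.8 in empty vector libraries. Sesn1 summed to 164 ± 35.1 CPM with Smndc1 shRNA, 175 ± 33.7 with Atrx shRNA and 172 ± 30.4 in empty vector libraries. Zmat3 summed to 58.8 ± 5.61 CPM with Smndc1 shRNA, 65.8 ± 10.1 with Atrx shRNA and 57.9 ± 5.18 in empty vector libraries. The groups overlapped for all 10 sums in every comparison. The log2 fold changes of the 10 sums ran from -0.18 to 0.19 for Smndc1 shRNA and from -0.12 to 0.28 for Atrx shRNA. At the 10 strongest regions they ran from -0.24 to 0.16 and from -0.21 to 0.21 with TMM factors, with SEs of 0.25 to 0.28.

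As a group the 48 regions had a median log2 fold change of -0.03 with Smndc1 shRNA, and all regions had 0.02. With Atrx shRNA the median was 0.16, with 34 of 48 positive, and over all regions it was 0.01 with 50.7% positive. Trended offsets gave medians of 0.02 for Smndc1 shRNA, with 0.01 over all regions, and 0.13 for Atrx shRNA, with -0.02 over all regions. For Smndc1 shRNA against Atrx shRNA the median was -0.11 with TMM factors, with 17 of 48 positive, and 0.00 over all regions. The positive values with Atrx shRNA were most frequent in the flanks, with 13 of 16, and least in promoter windows, with 4 of 8.

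Other genes of the pathway were taken from lists, described here by their counts, with the shares of all regions called as above. Of 55 regions at 20 further p53 targets of arrest and repair, 0 were called in any comparison with TMM factors or trended offsets in edgeR, and 2, 1 and 2 had an unadjusted p under 0.05 with TMM factors. Of 70 regions at 12 regulators of p53, 0 were called with TMM factors (4, 5 and 1 at an unadjusted p under 0.05). With trended offsets 1 rose with Smndc1 shRNA, at Usp7, a ubiquitin protease that acts on Mdm2 and p53. It had 28.9 ± 4.26 CPM with Smndc1 shRNA, 27.0 ± 4.07 with Atrx shRNA and 18.7 ± 3.14 in empty vector libraries (0.69 ± 0.17, adjusted p = 0.0136).

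Of 45 regions at 9 of 14 listed p53 targets of apoptosis, 0 were called with TMM factors (3, 4 and 0 at an unadjusted p under 0.05), and with trended offsets 2 rose with Smndc1 shRNA and 2 with Atrx shRNA. A region of Bbc3, which encodes the cell death protein Puma, stood at 92.0 ± 19.97 CPM with Smndc1 shRNA, 104 ± 25.5 with Atrx shRNA and 68.8 ± 14.8 in empty vector libraries. Its fold changes were 0.45 ± 0.11 (adjusted p = 0.0112) and 0.56 ± 0.11 (adjusted p = 0.00308). A second Bbc3 region rose with Smndc1 shRNA (0.79 ± 0.22, adjusted p = 0.0322), and a region of Bax, a pore-forming death protein, rose with Atrx shRNA (0.64 ± 0.15, adjusted p = 0.0215). Pmaip1, Tnfrsf10b, Perp, Eda2r and Casp1 had no region in their windows.

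Of 25 regions at 8 paralogs of the members, 0 were called with TMM factors (4, 7 and 1 at an unadjusted p under 0.05). With trended offsets 1 rose with each shRNA, at Cdkn1b, which encodes p27, the sister inhibitor of p21. It had 53.9 ± 16.5 CPM with Smndc1 shRNA, 55.9 ± 11.6 with Atrx shRNA and 35.2 ± 8.22 in empty vector libraries, and its fold changes were 0.65 ± 0.13 (adjusted p = 0.00109) and 0.67 ± 0.13 (adjusted p = 0.00246). The summed level of the 2 fibroblast markers was 186 to 202 CPM with Smndc1 shRNA, 192 to 206 with Atrx shRNA and 205 to 226 with empty vector, while that of the 8 alpha cell markers was 761 to 940, 700 to 929 and 634 to 801. With trended offsets 5 of 58 alpha cell marker regions tested rose with Smndc1 shRNA, and 2 rose and 1 fell with Atrx shRNA. Over all regions 0.416% were called higher and 0.717% lower with Smndc1 shRNA in that fit, and 0.195% and 0.0734% with Atrx shRNA. With TMM factors 1 alpha cell marker region was called, at Irx1, higher with Smndc1 shRNA than with empty vector (1.11 ± 0.24, adjusted p = 0.022), and no region of the other marker lists was. Between the shRNAs 1 was called with trended offsets, at the glucagon gene Gcg, higher with Smndc1 shRNA than with Atrx shRNA (1.003 ± 0.158, adjusted p = 4.94e-06). Of 8 beta cell marker regions 1 rose with Smndc1 shRNA, and 1 rose and 1 fell with Atrx shRNA. Of 10 fibroblast marker regions 1 fell with Smndc1 shRNA, and none of the delta, acinar and duct, leukocyte or endothelial marker regions was called against empty vector. The part of these markers in the changes at the p53 genes was not tested.

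The genes whose strongest region ran most like that of Cdkn1a over the 9 libraries were Adnp and Dpm1, which share 1 region (Pearson r = 0.992), and 1700001C19Rik (r = 0.984), out of 17001 genes. At the strongest Cdkn1a region the low-contrast library of each group was the lowest of its group. The part of these differences in contrast in the correlations was not tested.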

How the data were processed

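Per the labels' protocols, ATAC-seq libraries of transduced alphaTC1 cells were sequenced as 75 bp paired-end reads. The deposited counts are the authors' raw counts over 80827 consensus regions on mm10 (GRCm38) in 9 libraries. The submitters' processing notes name Bowtie2 2.4.4, MACS2 2.2.7.1, bedtools 2.27.1 and deepTools 3.5.1. Not given in the sources used here are the rule that merged regions and the unit counted in them (read, fragment or insertion). Columns were matched to samples by name.

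Counts were tested with edgeR 4.0.16 in R 4.3.3 (quasi-likelihood F test, robust, TMM factors, filterByExpr with a minimum count of 10, 1 coefficient per group over all 9 libraries), with Benjamini-Hochberg adjustment over the 80345 regions that passed, and again on counts summed per gene. An SE is the absolute log2 fold change over the square root of F. Trended offsets came from a loess curve of each library's log2 count on the mean log2 count. DESeq2 1.42.0 and limma voom 3.58.1, other filters and left-out libraries were alternatives. The code was tested on simulated data. Window shares were added after the data were seen. P-values measure the spread between these libraries only.

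The members and lists were chosen with earlier results of these data known. Each member was named by its strongest region and its sum, along with every member region called by either scaling. Other member regions named in the text were chosen after their values were seen. Genes of other lists were named only where a region was called, and the 3 genes most like Cdkn1a by correlation. The lists were regulators of p53, other p53 targets of arrest and repair, p53 targets of apoptosis, paralogs of the members, and markers of alpha, beta, delta, acinar and duct, leukocyte, endothelial and fibroblast cells. Gene bounds, starts and promoter sequences came from RefSeq tables (GRCm38.p6), and figures were drawn with matplotlib 3.10.9.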

Additional observations from a re-analysis of the deposited data

How the results depend on the processing

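With TMM factors the number of member regions called for Smndc1 shRNA over empty vector was 0. It was 1 with the 6 libraries of the comparison alone, with a mean count of at least 50, with replicate 3 of every group left out, with a replicate block and at an adjusted p under 0.1, and 0 to 1 when single libraries were left out. It was 3 with trended offsets, also with the replicate block, and 0 to 3 with trended offsets when single libraries were left out. For Atrx shRNA over empty vector 0 members were called with TMM factors. There was 1 with replicate 3 of every group left out, with trended offsets and with the replicate block and trended offsets together. With trended offsets, 0 to 2 were called when single libraries were left out and 2 with replicate 3 of every group left out, an alternative chosen after seeing the data. The shares of all regions called under these alternatives are not given here. The counts therefore show only whether a member passed, and not whether members gained more calls than other regions. The causes were not tested. The replicate numbers share no stated source, and the pairs did not all correlate: in deviations from the group means, libraries numbered 3 correlated at 0.32 to 0.42, those numbered 1 or 2 at -0.04 to 0.25, and libraries of different numbers at -0.38 to 0.30. With the replicate block and TMM factors the 1 region called was the Xpc end region, at -0.91 (adjusted p = 0.000425). Gene sums and the comparison of Smndc1 shRNA with Atrx shRNA stayed at 0 called members under every alternative run. Fold changes under alternatives were followed for 13 regions, the strongest of each gene and those called with trended offsets. The Zmat3 flank region was not among them. Of these fold changes, 1090 stayed on their side of the threshold, 37 newly passed it, and 0 reversed a call. The 1090 include values that were never called and changed sign by less than 1 SE, such as the Trp53 start region with Smndc1 shRNA, which ran from -0.11 to 0.21 with TMM factors when single libraries were left out. A further 4 uncalled values changed sign by more than 1 SE. The 4 were the Mdm2 and Sesn1 start regions without Atrx shRNA replicate 1. Over all regions, the calls for Smndc1 shRNA over empty vector numbered 125 with edgeR, 26 with DESeq2 and 28 with limma voom. Low counts in flank regions limit what could be detected there.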
